A study of Mus musculus with 6 samples.

Results

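The 31 genes described here encode the cadherins, catenins, nectins and desmosomal proteins that hold neighbouring cells together. They were taken from a fixed list of names, each with the 1 array probe set that carried only its symbol, and all 31 were measured among 19938 genes with such a probe set. RNA came from 6 whole mammary tumors, 1 Affymetrix Mouse Gene 1.0 ST array each. All 6 mice carried the MMTV-PyMT transgene, in which the mouse mammary tumor virus promoter drives polyoma middle T antigen in the mammary epithelium. Tumors 5333, 5346 and 5347 lacked junctional adhesion molecule-A (JAM-A-/-, JAM-A KO in the labels), a tight junction protein encoded by F11r, and tumors 5369, 5370 and 5393 kept it (JAM-A+/+). The deletion was in the germ line, so every cell of a JAM-A-/- tumor lacked the protein. The controls were JAM-A+/+ littermates, but the sources used here give no litter, age or batch for any single tumor. Tumors were taken early in their development, and the labels do not say whether each came from a separate mouse, so the p-values measure only the spread between these samples. The tissue label of tumor 5347 leaves out the loss of JAM-A that its title and genotype state.

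Adherens junctions are built on classical cadherins, which bind each other across the gap between cells and hold beta-catenin or plakoglobin and p120-catenin on their cytoplasmic side. Alpha-catenin and vinculin link this complex to actin. Nectins are immunoglobulin-like adhesion molecules that join the same belt through afadin. Desmosomes use desmogleins and desmocollins outside the cell and plakoglobin, plakophilins and desmoplakin inside it to anchor keratin filaments. In mammary ducts E-cadherin is carried by luminal cells and P-cadherin by basal cells, and afadin also binds JAM-A. The comparison asks whether tumors without JAM-A differed in the RNA of these neighbouring junction systems.

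All levels below are log2 values on the scale the authors deposited, and all differences are JAM-A-/- minus JAM-A+/+. The targeted gene F11r was at 5.91, 5.55 and 6.53 in JAM-A-/- tumors 5333, 5346 and 5347, and at 10.10, 10.23 and 10.47 in JAM-A+/+ tumors 5369, 5370 and 5393, so the groups lay far apart. Its difference was -4.27 with a standard error (SE) of 0.24, and it was the single probe set of 35557 with an adjusted p under 0.05 (adjusted p = 0.00667, limma with Benjamini-Hochberg adjustment over all probe sets). Below, a gene met the criteria where its fold was at least 1.3 and its unadjusted limma p was under 0.05. Over all probe sets 1405 met them higher and 1547 lower in JAM-A-/- tumors, a share of 47.6% higher that moved to 35.6% after quantile normalization of all arrays and to 66.4% after centring each array on its median. The arrays correlated at 0.986 to 0.991 within a genotype and at 0.979 to 0.989 between genotypes. JAM-A-/- tumor 5333 correlated better with JAM-A+/+ tumor 5393 (0.989) than with tumors 5346 and 5347 of its own group (0.987 and 0.986). JAM-A+/+ tumor 5369 held the lowest of the 6 values for 36.2% of all genes. The 10 luminal epithelium markers, among them keratins 8 and 18, averaged 10.7 to 11.2 in every tumor.

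Of the 31 junction genes, 4 met the criteria and were higher in JAM-A-/- tumors (12.9%, against 4.73% of all genes). They were Cdh3 (P-cadherin), Cdh11 (cadherin-11), Dsc2 (desmocollin-2) and Pkp1 (plakophilin-1). None met the criteria lower, against 0.592% of all genes. With adjustment over all probe sets in limma no member passed, and their adjusted p-values ran from 0.386 to 0.976. At an unadjusted p under 0.05 without the fold there were 8 higher and 0 lower members, against 7.18% and 0.978% of all genes. The 8 were the 4 above with Cdh2, Cdh13, Ctnnb1 and Lima1. Complete separation of the groups, with every JAM-A-/- tumor above every JAM-A+/+ tumor, was found for 7 members (22.6%, against 12.4% of all genes), and the reverse for 0 (against 2.55%). The 7 were Cdh3, Cdh2, Cdh13, Ctnnb1, Dsc2, Pkp1 and Pkp4. The median difference of the members was 0.17, against 0.09 over all genes, and 25 members lay above 0 (80.6%, against 71.8% of all genes). After quantile normalization of all probe sets these medians were 0.113 and 0.0675. The shares above 0 were then close, at 67.7% of members and 66.4% of all genes. With 3 tumors a group an exact permutation test of 1 gene cannot go below p = 0.1.

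The intervals below concern the difference between group means on the deposited scale, with no adjustment for the number of genes. Another scaling can move them. The difference of Ctnnd1 went from -0.12 to -0.32 (SE 0.12) after quantile normalization of all arrays. The 95% interval of the difference excluded a 2-fold fall for 31 of 31 members and a 1.5-fold fall for 30, the exception being Pvr. It excluded a 2-fold higher level for 30, the exception being Cdh11, but a 1.5-fold higher level for only 17.

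**Figure D1:**
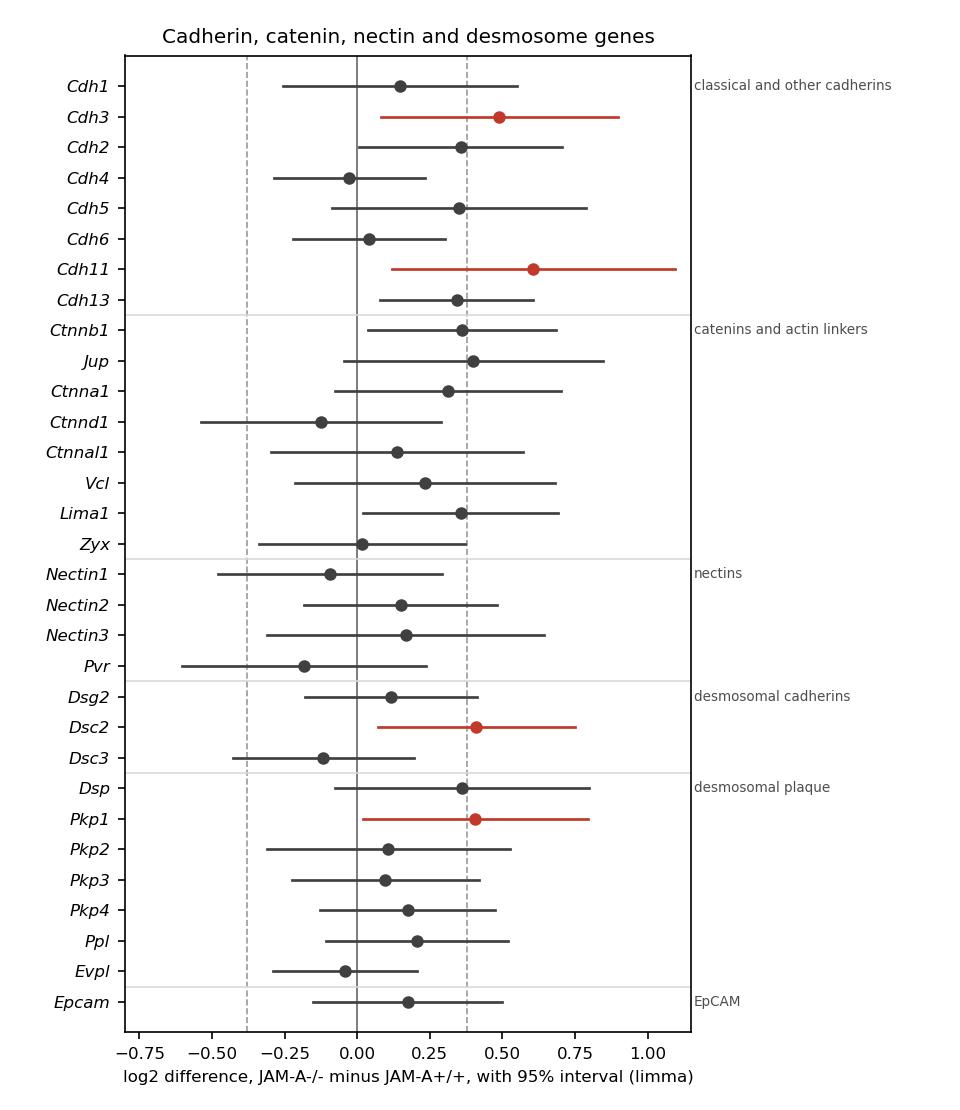
Log2 difference (JAM-A-/- minus JAM-A+/+) of the 31 junction genes with its 95% interval from limma, grouped by role; dashed lines mark a fold of 1.3 and red points met the criteria. The 4 red genes Cdh3, Cdh11, Dsc2 and Pkp1 lie to the right, and no interval lies wholly below 0.

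Among the 8 cadherins outside the desmosome, P-cadherin and cadherin-11 met the criteria (25%, against 4.73% of all genes higher). Of the 8 differences 7 lay above 0 (87.5%, against 71.8% of all genes). Their median was 0.35, against 0.09 over all genes. E-cadherin, the main cadherin of luminal epithelium, did not meet the criteria. Cdh1, its gene, was at 11.12, 11.47 and 11.64 in JAM-A-/- tumors and at 11.03, 11.33 and 11.43 in JAM-A+/+ tumors. The groups overlapped, with tumor 5333 below tumors 5370 and 5393. The fold was 1.11 with a 95% interval of 0.837 to 1.46 (adjusted p = 0.774, limma), and the sign of the log2 difference turned from 0.15 to -0.05 with quantile normalization of all probe sets or of the listed probe sets only.

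Cdh3, which lies directly beside Cdh1 on chromosome 8 with no protein-coding gene between them, was at 6.71, 6.66 and 6.30 in JAM-A-/- tumors. In JAM-A+/+ tumors it was at 5.77, 6.22 and 6.21. These JAM-A+/+ values, and the 6.30 of tumor 5347, lay within the F11r range of JAM-A-/- tumors (5.55 to 6.53). Cdh3 was therefore near the level of a deleted gene in those tumors. The groups did not overlap, and tumor 5369 was lowest. The means were 6.56 ± 0.22 and 6.07 ± 0.26 (SD, n = 3 each), a difference of 0.49 (SE 0.17, adjusted p = 0.410, limma). Left out in turn, tumors 5333, 5346 and 5369 each ended the call, with differences of 0.41, 0.44 and 0.34.

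Cdh11, a cadherin of mesenchymal cells that also lies next to a cadherin gene (Cdh5), was at 8.73, 8.48 and 8.79 in JAM-A-/- tumors and at 7.67, 8.48 and 8.03 in JAM-A+/+ tumors. It had the widest spread of all members, 1.12 over the 6 tumors. The groups met at 8.48, the value of tumors 5346 and 5370. The means were 8.67 ± 0.16 and 8.06 ± 0.41 (SD, n = 3 each), a fold of 1.52 with an interval of 1.09 to 2.13 (adjusted p = 0.398, limma). Without tumor 5369 the difference was 0.41 in place of 0.61, and the call also ended without tumors 5333, 5347 or 5393 (0.58, 0.55 and 0.59).

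Cdh2 and Cdh13 did not overlap between the genotypes but stayed below a fold of 1.3. N-cadherin, the product of Cdh2 and a cadherin of mesenchymal and neural cells, had RNA values of 5.96, 5.88 and 5.75 without JAM-A and 5.69, 5.23 and 5.60 with it. The difference was 0.36 (95% interval 0.01 to 0.71, adjusted p = 0.451, limma). Every Cdh2 value lay within or below the F11r range of JAM-A-/- tumors (5.55 to 6.53), so Cdh2 was near the level of a deleted gene. Cdh13 encodes T-cadherin, which lacks a cytoplasmic tail and binds adiponectin. Its values of 6.57, 6.74 and 6.80 without JAM-A stood against 6.35, 6.37 and 6.36 with it, where the JAM-A+/+ tumors lay within 0.02 of each other. The difference was 0.34 (SE 0.11), with the lowest adjusted p of any member (0.386, limma). The JAM-A+/+ values of Cdh13 also lay within that F11r range, and its JAM-A-/- values lay above it.

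VE-cadherin (Cdh5), the cadherin of vessel endothelium, was at 7.42, 7.88 and 7.78 in JAM-A-/- tumors and at 7.04, 7.62 and 7.37 in JAM-A+/+ tumors. The groups overlapped, and the difference was 0.35 (interval -0.09 to 0.79, adjusted p = 0.521, limma). The remaining cadherins differed little. Cdh4 (R-cadherin) had a difference of -0.03 and Cdh6 (K-cadherin) one of 0.04, and each spanned at most 0.20 over the 6 tumors.

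**Figure D2:**
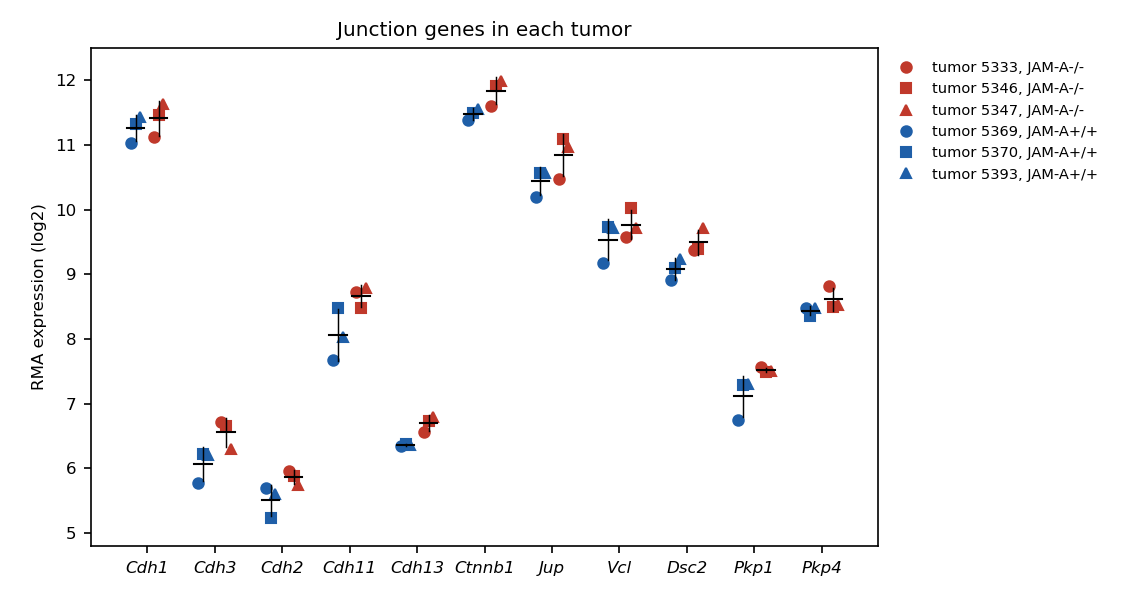
Log2 level of 11 junction genes in each of the 6 tumors (vertical axis), JAM-A+/+ and JAM-A-/- side by side, with the group mean as a tick and 1 SD as a bar (n = 3 each). Cdh3, Cdh2, Cdh13, Ctnnb1, Dsc2, Pkp1 and Pkp4 do not overlap between genotypes, while Cdh1, Jup and Vcl do and Cdh11 meets at 8.48.

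Of the 8 catenins and actin linkers none met the criteria, and 7 lay above 0 (87.5%, against 71.8% of all genes). Their median difference was 0.27, against 0.09 over all genes. Ctnnb1, which encodes beta-catenin, the link between cadherins and alpha-catenin and the effector of canonical Wnt signalling, was at 11.60, 11.92 and 11.99 in JAM-A-/- tumors. In JAM-A+/+ tumors it was at 11.38, 11.49 and 11.56. Every JAM-A-/- value was above every JAM-A+/+ value, but the gap between tumors 5333 and 5393 was narrow. The difference was 0.36 (SE 0.14), a fold of 1.28 with an interval of 1.03 to 1.61 (adjusted p = 0.430, limma). Quantile normalization brought it to 0.18 over all probe sets and 0.19 over the listed ones. Ctnnb1 met the criteria in 4 of 14 alternatives.

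Plakoglobin (Jup), which serves both adherens junctions and desmosomes, was at 10.47, 11.09 and 10.97 without JAM-A and at 10.20, 10.56 and 10.57 with it. Tumor 5333 fell among the JAM-A+/+ values. The fold was 1.32 (interval 0.968 to 1.80, adjusted p = 0.493, limma), and without tumor 5333 Jup met the criteria with a difference of 0.59. Quantile normalization brought the difference to 0.19 over all probe sets and 0.18 over the listed ones. Jup met the criteria in 3 of 14 alternatives. Vinculin (Vcl), which binds alpha-catenin under tension, was at 9.57, 10.02 and 9.72 in JAM-A-/- tumors and at 9.17, 9.73 and 9.71 in JAM-A+/+ tumors. The groups overlapped. Its difference of 0.23 (interval -0.21 to 0.68, adjusted p = 0.669, limma) shrank to 0.05 without tumor 5369.

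Alpha-catenin (Ctnna1) had a difference of 0.31 (adjusted p = 0.520, limma) and Lima1, an actin-bundling partner of alpha-catenin, one of 0.36 (adjusted p = 0.441, limma), with a shared value of 9.39 in tumors 5333 and 5393. The p120-catenin gene Ctnnd1, whose product steadies cadherins at the membrane, was the only member of the group below 0 on the deposited scale. Its values were 10.26 in tumor 5333 and 10.73 to 10.91 in the other 5 tumors, with a difference of -0.12 that turned to 0.07 without tumor 5333. With every tumor kept, quantile normalization moved the difference further down. It was -0.32 over all probe sets (unadjusted p = 0.031, adjusted p = 0.395, limma). Over the listed ones it was -0.34 (unadjusted p = 0.018, adjusted p = 0.442, limma). Both values fell short of the fold, so Ctnnd1 did not meet the criteria lower. Ctnnal1 (alpha-catulin) differed by 0.14. Zyxin (Zyx), a LIM protein of actin attachment sites, differed by 0.02, and quantile normalization turned it to -0.11 over all probe sets and -0.13 over the listed ones.

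RefSeq promoter sequences (assembly GRCm38.p6) were searched for 13 of the 31 members. Cdh3, Cdh11, Dsc2 and Pkp1 were not among the 13, nor were Cdh2, Ctnna1, Dsg2 and Dsc3. Sequences are shown for the catenin that did not overlap between genotypes. They are also shown for the only members of the 13 whose first listed promoter held CACCTG on either strand (CACCTG or CAGGTG). It is the E-box kind that the Snail and Zeb repressors of epithelial genes are known to bind. The 250 bases before each start are printed 5′ to 3′ on the gene's strand, with that motif in capitals. Ctnnb1 lies at chr9:120933150-120933399 (plus strand), Nectin2 at chr7:19749574-19749823 (minus strand) and Epcam at chr17:87635729-87635978 (plus strand).
Ctnnb1: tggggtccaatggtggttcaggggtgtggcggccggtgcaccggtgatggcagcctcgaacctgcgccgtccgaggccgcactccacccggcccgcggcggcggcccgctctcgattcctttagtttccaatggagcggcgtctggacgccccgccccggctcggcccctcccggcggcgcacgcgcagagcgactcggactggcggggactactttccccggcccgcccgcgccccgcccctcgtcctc
Nectin2: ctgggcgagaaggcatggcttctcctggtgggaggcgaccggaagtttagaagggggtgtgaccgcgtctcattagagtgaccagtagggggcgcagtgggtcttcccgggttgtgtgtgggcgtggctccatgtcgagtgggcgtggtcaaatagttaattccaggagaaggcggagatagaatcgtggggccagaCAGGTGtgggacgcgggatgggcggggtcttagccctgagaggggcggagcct
Epcam: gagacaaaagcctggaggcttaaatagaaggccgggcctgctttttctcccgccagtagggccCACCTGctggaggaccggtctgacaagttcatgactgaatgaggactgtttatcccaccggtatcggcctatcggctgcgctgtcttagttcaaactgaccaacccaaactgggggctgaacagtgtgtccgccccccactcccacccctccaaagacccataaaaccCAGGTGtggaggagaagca
The Ctnnb1 stretch held no such motif and was 74.8% G or C. Nectin2 held 1, 53 bases before the start, and Epcam held 2, the first 187 bases before it. With a second start of Pkp4, 3 of the 16 member promoters searched held the motif. The share was 17.2% of 32851 promoters of the same length, with no chromosome left out. The 16 cover only part of the members and none of the 4 that met the criteria, so no comparison with that share was drawn. These letters are a description of the windows, and no binding was measured.

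Among the nectins and their relative Pvr, no gene met the criteria and the groups overlapped for all 4. Nectin1 differed by -0.09, Nectin2 by 0.15 and Nectin3 by 0.17 (adjusted p from 0.715 to 0.856, limma). Pvr, the poliovirus receptor, which binds nectin-3 on neighbouring cells and lies on chromosome 7 near Nectin2, had the lowest difference of the 31 members at -0.18 (interval -0.60 to 0.24, adjusted p = 0.725, limma). Its highest value was 7.88 in JAM-A+/+ tumor 5393, and the other 5 tumors lay at 7.25 to 7.61. The median difference of the 4 genes was 0.03 on the deposited scale and -0.04 and -0.09 after quantile normalization of all and of listed probe sets.

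Of the 3 desmosomal cadherins 1 met the criteria. Dsc2, which encodes the desmocollin found in simple as well as stratified epithelia, was at 9.38, 9.39 and 9.71 in JAM-A-/- tumors and at 8.91, 9.10 and 9.24 in JAM-A+/+ tumors. All JAM-A-/- tumors were above all JAM-A+/+ tumors. The means were 9.49 ± 0.19 and 9.08 ± 0.17 (SD, n = 3 each), a difference of 0.41 (SE 0.15, adjusted p = 0.410, limma). It was the only member to meet the criteria when the spread of each probe set was taken alone in an equal-variance test. Array weights (0.33) and quantile normalization of all (0.25) or listed probe sets (0.24) brought it below the fold of 1.3. The call also ended without tumors 5347, 5369 or 5370 (0.30, 0.32 and 0.42).

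Its partner desmoglein-2 (Dsg2), the desmoglein of simple epithelia, was at 9.58 to 9.73 without JAM-A and at 9.34 to 9.65 with it, a difference of 0.12 (adjusted p = 0.752, limma) that turned to -0.06 and -0.07 with the quantile normalizations. Dsc3, a desmocollin of stratified epithelia, was at 4.53 to 4.77 and 4.59 to 4.91, a difference of -0.12. It was 1 of 2 members, with Cdh6, among the 40% dimmest probe sets. Direct tests of one desmosomal cadherin against another were not made.

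In the plaque under the membrane, Pkp1 met the criteria. Plakophilin-1 ties desmoplakin to the desmosomal cadherins and is known mainly from stratified epithelium. It was at 7.56, 7.49 and 7.51 in JAM-A-/- tumors and at 6.75, 7.29 and 7.30 in JAM-A+/+ tumors. The JAM-A-/- tumors lay within 0.07 of each other, and tumor 5369 stood apart from the rest. The means were 7.52 ± 0.036 and 7.11 ± 0.31 (SD, n = 3 each), a difference of 0.41 (SE 0.17, adjusted p = 0.444, limma). Without tumor 5369 it was 0.23 and no longer met the criteria. Without any 1 of the JAM-A-/- tumors it also lost the call, at 0.39 to 0.42.

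Desmoplakin (Dsp), which anchors keratin, was at 9.70, 9.45 and 9.64 without JAM-A and at 9.61, 8.90 and 9.20 with it. Here tumor 5369 was the high JAM-A+/+ tumor, so that the difference of 0.36 became 0.55 and met the criteria without it. Pkp4, a plakophilin relative found at both kinds of junction, did not overlap between genotypes, at 8.82, 8.49 and 8.53 against 8.48, 8.36 and 8.48. The gap was 0.01, and the difference of 0.17 was far from the criteria (adjusted p = 0.633, limma). Pkp2 and Pkp3 differed by 0.11 and 0.10, and both turned below 0 with the quantile normalizations (-0.01 and -0.02 over all probe sets, -0.03 and -0.05 over the listed ones). The plakins periplakin (Ppl) and envoplakin (Evpl) differed by 0.21 and -0.04. Epcam, an epithelial adhesion molecule that is no cadherin, was at 11.62, 11.86 and 12.07 without JAM-A and 11.63, 11.68 and 11.72 with it, a difference of 0.17 (interval -0.15 to 0.50, adjusted p = 0.660, limma).

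Which members met the criteria depended on the scaling, on the model of the spread and on single tumors. Over 14 alternatives Cdh3 met them in 10, Cdh11 and Dsc2 in 8 each and Pkp1 in 7, and all 4 stayed above 0 throughout. Array weights kept Cdh3 of the 4, beside Cdh2, Ctnnb1, Jup and Lima1, and put Cdh11 at 0.38, while the equal-variance test kept Dsc2. Without tumor 5333 there were 7 members, of which Dsc2 alone was among the 4, and without tumor 5369 there were 2, Cdh2 and Dsp. No member met the criteria lower under any alternative.

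**Figure D3:**
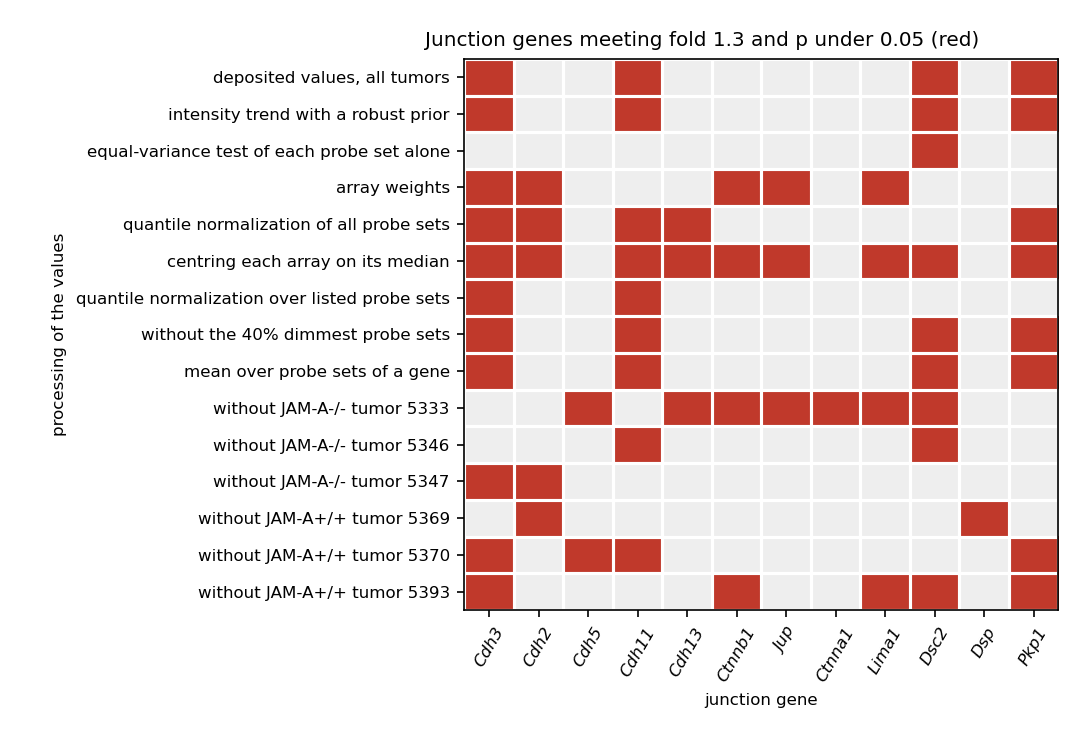
Junction genes (columns) that met the criteria of fold 1.3 and p under 0.05, filled red, under each processing of the values (rows); genes that met them nowhere are left out. Cdh3, Cdh11, Dsc2 and Pkp1 are filled with the deposited values, and no row without 1 tumor holds all 4.

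By tumor, the lowest values of the members lay most often in tumor 5369, which held the lowest value for 16 of 31 members (51.6%, against 36.2% of all genes), and 27 members were highest in a JAM-A-/- tumor, against 71% of all genes. Averaged over a group as deviations from each gene's mean, the cadherins were at 0.10, 0.16 and 0.17 in JAM-A-/- tumors and at -0.28, -0.08 and -0.08 in JAM-A+/+ tumors, with no overlap. The desmosomal plaque genes did not overlap either (0.04, 0.08 and 0.16 against -0.13, -0.12 and -0.03). The catenins and linkers did, since tumor 5333 was at -0.09, below tumor 5393 at 0.03. Over all genes the same averages were -0.03, 0.05 and 0.13 against -0.11, -0.04 and -0.01. Quantile normalization of all and of listed probe sets left the median difference of the cadherins at 0.35 and 0.26, but brought that of the catenins and linkers to 0.09 and 0.08 and that of the plaque genes to 0.07 and 0.05. That of the desmosomal cadherins turned from 0.12 to -0.05 and -0.07.

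**Figure D4:**
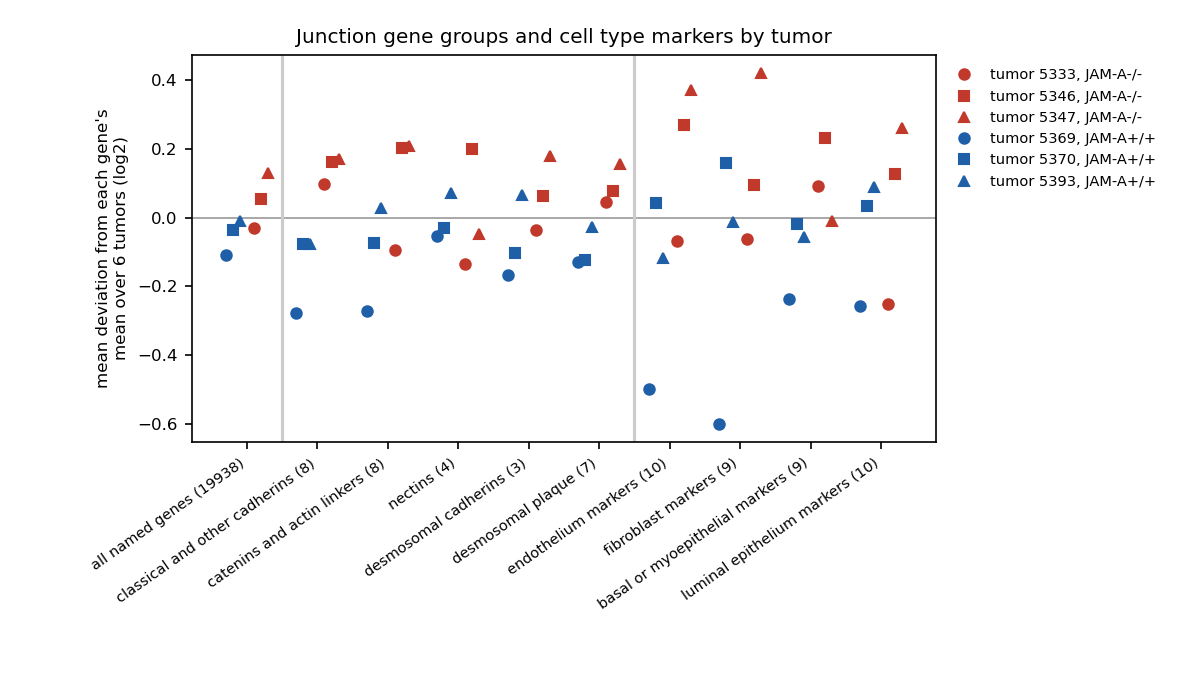
Mean over genes of the deviation from the gene's own 6-tumor average (log2, vertical axis), for all named genes, 5 groups of junction genes and 4 lists of cell type markers, with the number of genes in parentheses and 1 point per tumor. On the deposited scale cadherins and plaque genes separate the genotypes. JAM-A+/+ tumor 5369 lies lowest for all named genes and for every group and list shown except the nectins.

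Several cadherins belong to cell types whose other genes moved with the same tumors, and in whole tumors fewer cells of a type and less RNA per cell cannot be told apart. All 10 endothelium markers lay above 0 (against 71.8% of all genes), with a median difference of 0.41. Of them 3, Pecam1, Flt1 and Eng, met the criteria (30%, against 4.73% of all genes higher). The list averaged 6.99 to 7.43 in JAM-A-/- and 6.56 to 7.10 in JAM-A+/+ tumors. All 10 were lowest in tumor 5369, against 36.2% of all genes. The VE-cadherin difference of 0.35 stood beside a mean difference of 0.38 of this list, which left -0.03 once the list was taken off in each tumor. Its part in the result was not tested further.

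Of 9 fibroblast markers, Col1a2 and Pdgfra met the criteria (22.2%, against 4.73% of all genes higher). Above 0 lay 8 of them (88.9%, against 71.8% of all genes). All 9 were lowest in tumor 5369, against 36.2% of all genes. Their mean level was 9.69 to 10.17 in JAM-A-/- and 9.15 to 9.91 in JAM-A+/+ tumors. Cadherin-11 differed by 0.61 and the list by 0.30 on average, which left 0.30. This remainder was 0.43, 0.02 and 0.00 in JAM-A-/- tumors 5333, 5346 and 5347 and -0.09, -0.04 and -0.32 in JAM-A+/+ tumors 5369, 5370 and 5393, so that tumors 5333 and 5393 carried most of it.

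Of 9 basal or myoepithelial markers, Acta2 and Cnn1 met the criteria (22.2%, against 4.73% of all genes higher). The defining basal genes Krt5, Krt14 and Trp63 differed by 0.08, 0.01 and 0.03. The list averaged 7.66 to 7.90 in JAM-A-/- and 7.44 to 7.66 in JAM-A+/+ tumors. The mean difference of the list was 0.21 and its median 0.08, with Acta2 at 0.90 and Cnn1 at 0.44. P-cadherin and plakophilin-1 differed by 0.28 and 0.20 after the list mean was taken off. The plakophilin-1 remainder was 0.15, -0.06 and 0.20 in JAM-A-/- tumors 5333, 5346 and 5347. In JAM-A+/+ tumors 5369, 5370 and 5393 it was -0.33, -0.01 and 0.04, so the groups overlapped. None of the 10 luminal markers met the criteria. Their differences ran from -0.30 to 0.41, with 7 above 0 and 3 below. After their mean of 0.09 was taken off, Dsc2 and Ctnnb1 differed by 0.32 and 0.27. The Dsc2 remainder was 0.34, -0.03 and 0.16 in JAM-A-/- tumors 5333, 5346 and 5347. In JAM-A+/+ tumors 5369, 5370 and 5393 it was -0.12, -0.22 and -0.14. The part of these cell types in the 4 calls was not tested.

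**Figure D5:**
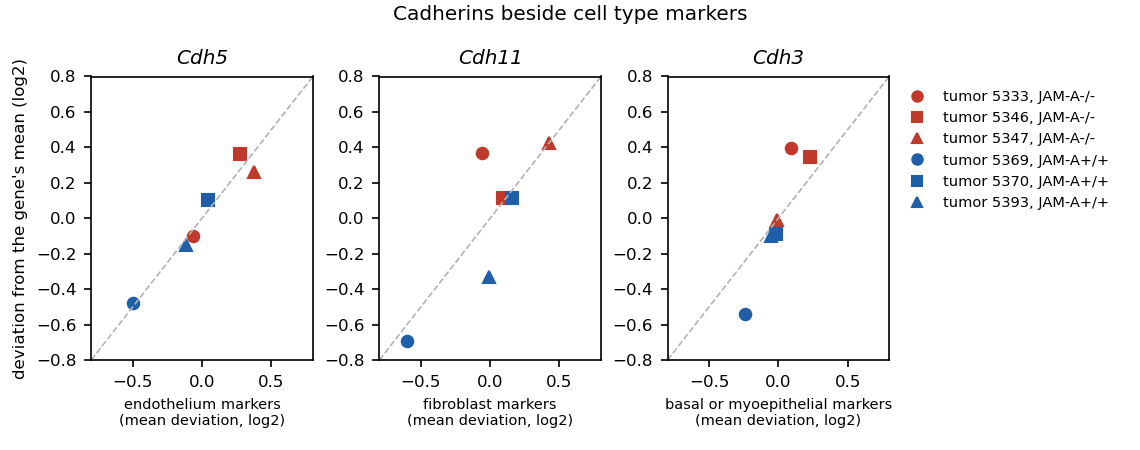
Deviation of Cdh5, Cdh11 and Cdh3 from their means (log2, vertical axes) against the mean deviation of endothelium, fibroblast and basal or myoepithelial markers (log2, horizontal axes), 1 point per tumor, with a dashed line of equality. Cdh5 lies along the line in all 6 tumors, Cdh11 leaves it mainly in tumors 5333 and 5393, and Cdh3 mainly in tumors 5333, 5346 and 5369.

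Of 44 further genes of these junctions 41 were measured. Of these, 3 met the criteria higher (7.32%, against 4.73% of all genes) and 0 lower (against 0.592%). Complete separation with JAM-A-/- tumors higher was found for 5 (12.2%, against 12.4% of all genes). Perp, a tetraspan protein of desmosomes and a p53 target, was at 10.30, 10.79 and 10.47 without JAM-A and 9.82, 10.03 and 10.15 with it. The groups did not overlap, the difference was 0.52 (SE 0.16, adjusted p = 0.367, limma), and Perp met the criteria without any 1 tumor, though its difference of 0.31 with either quantile normalization fell short of the fold. Nectin4, a nectin of epithelial tumors, was at 9.45, 9.92 and 10.22 against 9.06, 9.39 and 9.46, a difference of 0.56 (SE 0.21, adjusted p = 0.423, limma) with tumor 5333 just below tumor 5393. It no longer met the criteria without tumors 5346, 5347 or 5369 (0.53, 0.38 and 0.44), nor with the equal-variance test or either quantile normalization. Enah, which promotes actin filament growth at junctions, was at 8.66, 9.51 and 8.97 against 8.39, 8.60 and 8.61, a difference of 0.51 (SE 0.21, adjusted p = 0.449, limma) that met the criteria in 1 of 6 fits without a tumor, the one without tumor 5333. Afadin (Afdn), the nectin partner that also binds JAM-A, differed by -0.18. The median of the 41 genes was 0.10, beside 0.09 over all genes.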

How the data were processed

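Total RNA of 6 tumors was measured on Mouse Gene 1.0 ST arrays. The deposited values are log2 expression values, processed by the authors with RMA (Affymetrix Expression Console 1.1 in the submitters' processing notes) and rounded to 2 decimals. RMA scales arrays against each other, so total RNA cannot be read from them. The deposited arrays still differed in spread. Their interquartile range was 3.41, 3.61 and 3.74 in tumors 5333, 5346 and 5347, and 3.27, 3.50 and 3.53 in tumors 5369, 5370 and 5393. Their medians ran from 6.23 to 6.34. An array gives no read count, and the number of arrays limits the precision. Tumors were grouped by title (3 JamA-, 3 JamA+). No 2 arrays shared more than 1.96% of values.

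Differences, SE, 95% intervals and p-values were computed with limma 3.58.1 in R 4.3.3 (lmFit and eBayes, no covariate) over 35557 probe sets, with Benjamini-Hochberg adjustment. The paper's text names no test for its arrays, and the thresholds (fold 1.3, p 0.05) follow its list of changed probe sets. The annotation gave 21789 probe sets 1 symbol and 1621 several, and does not list 12147. RefSeq names matched 21698. The probe set with the highest mean stood for a gene, and each member had 1. Values per tumor are given for F11r, for genes that met the criteria, did not overlap or had 1 of the 5 widest ranges, for Cdh1, Ctnnb1 and Vcl, and for some others chosen after their values were seen. Marker deviations are averages over a list's genes. The members, lists and tests were chosen with earlier results of these data known. The fit was tested on simulated data. Alternatives were other variance settings, array weights, 3 scalings, a filter on dim probe sets, gene means, other fold thresholds and each tumor left out.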

Additional observations from a re-analysis of the deposited data

How the results depend on the processing

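The count of 4 members higher was 1 with an equal-variance test of each probe set, 9 after median centring, 2 after quantile normalization of listed probe sets, 1 at a fold of 1.5, 8 with no fold threshold, and 2 to 7 with 1 tumor left out. The lower count stayed 0. Over all probe sets the higher count of 1405 moved as well. It was 674, 2391, 395, 365 and 2070 under the same settings in that order, and 816 to 3083 with 1 tumor left out. The members' median of 0.17 was 0.0469 after quantile normalization of listed probe sets, where the median of all genes was 0.0022, and 0.14 to 0.29 with 1 tumor left out. The 3 further junction genes were 1 with the equal-variance test, 6 with array weights, 0 with each quantile normalization and at a fold of 1.5, and 1 to 8 with 1 tumor left out. All probe sets meeting the criteria, 2952, were 1471 with the equal-variance test, 817 after quantile normalization of listed probe sets, 1274 at a fold of 1.5 and 2040 to 5016 with 1 tumor left out.

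Of the uncalled members, these changed sign. With array weights Ctnnal1 was at -0.022 and Nectin1 at 0.012. With quantile normalization of all probe sets Cdh1 was at -0.0456, Cdh4 at 0.0203, Zyx at -0.11, Dsg2 at -0.0589, Pkp2 at -0.01 and Pkp3 at -0.0247. With listed probe sets Cdh1 was at -0.0481, Ctnnal1 at -0.0025, Zyx at -0.132, Dsg2 at -0.0672, Pkp2 at -0.0325 and Pkp3 at -0.0469. Median centring put Cdh4 at 0.03 and Evpl at 0.0133. With 1 tumor left out Ctnnd1 ran from -0.253 to 0.0717, Ctnnal1 from -0.03 to 0.305, Nectin1 from -0.187 to 0.0733, Cdh4 from -0.085 to 0.005, Zyx from -0.08 to 0.14, Pkp2 from -0.0267 to 0.31 and Cdh6 from -0.0017 to 0.0883. The cause of these sign changes was not tested. F11r met the criteria in 14 of 14 alternatives, with an adjusted p of 0.000461 to 0.453, and no member passed adjustment in any of them. No paired analysis was possible because no litter is given for any single tumor.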

Other observations

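Of 6 measured skin keratinocyte markers, Krt1, Krt10, Krtdap and Lor were highest in tumor 5346. Krt1 was at 9.36 there and at 4.65 to 5.70 in the other 5 tumors, and Krt10 at 8.66 against 5.83 to 6.41. The other markers of the list did not share this, since Ivl was lowest in that tumor (4.19 against 4.32 to 4.96) and Sbsn was at 7.16 there and at 6.65 to 7.25 in the others. Dsg3, a desmoglein of stratified epithelium outside the 31 members, was at 5.54 in that tumor and at 4.50 to 4.75 in the others. The members known from stratified epithelium did not share this, since Pkp1 was at 7.49, Dsc3 at 4.77 and Evpl at 6.95 in tumor 5346, none of them the highest of the 6.

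Skeletal muscle genes varied widely. Acta1 was at 9.26, 10.43 and 9.75 in JAM-A-/- tumors 5333, 5346 and 5347 and at 8.52, 9.63 and 7.37 in JAM-A+/+ tumors 5369, 5370 and 5393, while the muscle cadherin Cdh15 lay at 5.56 to 5.72 in all. Cdh19, a cadherin known from Schwann cell precursors, was at 7.43, 8.55 and 9.06 against 7.74, 7.85 and 7.91, a difference of 0.51 (SE 0.36).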
